A study of Mus musculus with 23 samples.

Results

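The windows described here are the stretches of the mouse autosomes in which extra-embryonic ectoderm (ExE) fell furthest below the epiblast in DNA methylation at embryonic day (E) 7.5. They were chosen by their measured values: of 348460 windows from 1 kb to just under 14 kb on the 19 autosomes with a value in all 8 E7.5 libraries, 846 (0.243%) had a mean over the 4 epiblast libraries at least 40 percentage points above the mean over the 4 ExE libraries. The difference in these 8 libraries is therefore the selection itself and is described without a test. Each window is one of the authors' windows of 100 CpGs, and its value is the percentage of methylated calls in it. The windows held a median of 51 CpG dinucleotides, and the members 55, so that the number 100 appears to count cytosines on both strands.

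DNA methylation was measured by post-bisulphite adaptor tagging (PBAT), in which bisulphite turns unmethylated cytosines into uracil before sequencing adaptors are added. The embryos were hybrids of C57BL/6 (B6) and CAST mice, with the maternal strain written first. At E7.5, single embryos gave 2 B6/CAST and 2 CAST/B6 libraries of each tissue. At E6.5, the libraries came from 10% inputs of MNase-digested chromatin, which the labels give as pools of 4 epiblasts or 8 ExE. They comprised 3 B6/CAST, 3 CAST/B6 and 2 matDKO/CAST epiblast libraries and 2 B6/CAST, 2 CAST/B6 and 3 matDKO/CAST ExE libraries. The matDKO/CAST embryos had wild-type CAST fathers and mothers carrying Dnmt3a fl/fl and Dnmt3b fl/fl on a B6/129 background, in which Zp3-cre deletes both genes in the growing oocyte. The embryos inherited 1 deleted and 1 intact copy of each gene (Dnmt3a -/+, Dnmt3b -/+). The B6/CAST and CAST/B6 embryos carried no deletion, and their B6 parents no 129 background.

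The epiblast gives rise to the embryo proper, while the ExE is a trophoblast tissue that contributes to the placenta. DNMT3A and DNMT3B are the enzymes that place methyl groups on unmethylated CpGs, and around implantation they methylate most of the epiblast genome. Trophoblast is known for lower methylation across broad gene-poor domains, and for an unmethylated promoter of Elf5, which encodes a transcription factor of trophoblast stem cells.

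Libraries differed in ways that bear on what follows. The depth behind each percentage is unknown, because the tables hold no coverage, so no counting interval can be given. Among the E6.5 libraries, B6/CAST lay below CAST/B6 over all 250886 windows with a value in the 10 wild-type libraries: 70.6 ± 4.69 (SD, n = 3) against 79.3 ± 0.544 (n = 3) in the epiblast and 52.4 ± 0.0449 (n = 2) against 64.5 ± 1.70 (n = 2) in ExE. An unexplained import mark stands in the headings of 5 E6.5 libraries, 1 of 3 B6/CAST epiblasts, both B6/CAST ExE and 2 of 3 matDKO/CAST ExE, and in no CAST/B6 heading. The cross and this mark cannot be fully told apart. The marked B6/CAST epiblast is headed with the number 2, while the labels of its group have 1, 3 and 4, so it was used as an unnumbered replicate of the group. In the window of Elf5 that holds 3 internal transcript starts (chr2:103424013-103426371, GRCm38) the E7.5 means were 66.9% in the epiblast and 35.3% in ExE, in the adjoining window (chr2:103421221-103424012) 80.9% and 44.4%, and at the outermost start (chr2:103411630-103416440) 85.9% and 63.9%. The tissue labels and this marker pointed the same way, though none of the 3 windows reached the 40 points and none was unmethylated in ExE. In 75.9% of the 348460 windows every E7.5 epiblast library lay above every ExE library, so most windows would point this way.

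Sequences from 6 member windows are shown because the members fell into long CpG-poor windows and a small number of short CpG-rich ones. For windows away from a transcript start, the 300 bases with the most CpGs are given, and for windows that hold a start, the 250 bases upstream of it. All are from GRCm38, plus strand, 5′ to 3′, with each CpG in capitals. The first lies at chr10:104687695-104687994, with no gene within 50 kb, the second in an intron of Kctd8 (chr5:69265361-69265660), the third in an intron of Pxn (chr5:115521445-115521744), and the others upstream of Gm6685 (chr11:28339868-28340117), Bin2 (chr15:100669554-100669803) and Esp23 (chr17:39077038-39077287).
Chromosome 10: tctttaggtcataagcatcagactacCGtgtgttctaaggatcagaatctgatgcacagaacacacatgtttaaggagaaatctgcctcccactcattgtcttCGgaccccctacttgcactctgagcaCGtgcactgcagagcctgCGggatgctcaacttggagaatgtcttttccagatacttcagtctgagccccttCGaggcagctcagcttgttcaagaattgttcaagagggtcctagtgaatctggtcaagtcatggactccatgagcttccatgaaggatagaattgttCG
Kctd8: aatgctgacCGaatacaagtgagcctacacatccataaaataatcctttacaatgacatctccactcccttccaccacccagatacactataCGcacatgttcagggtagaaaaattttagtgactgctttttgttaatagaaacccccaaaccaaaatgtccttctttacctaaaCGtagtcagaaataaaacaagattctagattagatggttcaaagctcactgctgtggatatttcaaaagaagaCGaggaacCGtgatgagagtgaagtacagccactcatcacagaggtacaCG
Pxn: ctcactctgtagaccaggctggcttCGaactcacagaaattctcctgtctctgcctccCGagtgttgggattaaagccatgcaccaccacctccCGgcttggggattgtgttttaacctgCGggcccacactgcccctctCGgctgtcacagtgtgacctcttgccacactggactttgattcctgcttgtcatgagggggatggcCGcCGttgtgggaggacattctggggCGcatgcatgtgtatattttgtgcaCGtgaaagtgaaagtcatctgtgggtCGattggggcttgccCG
Gm6685: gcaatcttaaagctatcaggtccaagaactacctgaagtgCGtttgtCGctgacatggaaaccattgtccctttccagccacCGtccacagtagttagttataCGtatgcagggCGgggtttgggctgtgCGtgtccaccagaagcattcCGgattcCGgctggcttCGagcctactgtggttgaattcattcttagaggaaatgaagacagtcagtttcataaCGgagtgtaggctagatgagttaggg
Bin2: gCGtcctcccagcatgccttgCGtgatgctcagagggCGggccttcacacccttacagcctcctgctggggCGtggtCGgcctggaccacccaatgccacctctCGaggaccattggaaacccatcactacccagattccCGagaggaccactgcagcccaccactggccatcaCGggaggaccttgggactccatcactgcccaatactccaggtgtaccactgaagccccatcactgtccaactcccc
Esp23: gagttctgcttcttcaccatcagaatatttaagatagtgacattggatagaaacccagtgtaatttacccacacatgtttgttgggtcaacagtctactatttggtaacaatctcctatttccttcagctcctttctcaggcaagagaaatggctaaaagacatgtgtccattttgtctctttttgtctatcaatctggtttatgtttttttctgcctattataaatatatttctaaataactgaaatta
The first 2 hold 6 CpGs each, the most that any 300 bases of those 11.9-kb and 12.6-kb windows hold. The Pxn stretch, from a 2.46-kb window, holds 11. Upstream of Gm6685 there are 10 CpGs in 250 bases and upstream of Bin2 there are 8, while the 250 bases upstream of Esp23, a secreted peptide gene in a 9.18-kb window, hold none.

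At the 846 members the epiblast had a median level of 81.3%, against 81.5% over all eligible windows and 79.1% over those of 9 kb or more. In ExE the median was 39.5%, against 62.2% and 52.2%. The epiblast libraries averaged 82.2% and 79.1% (B6/CAST 1 and 2) and 81.2% and 82.8% (CAST/B6 1 and 2), giving 81.3 ± 1.62% (SD, n = 4). The ExE libraries averaged 44.8% and 39.7% (B6/CAST) and 34.2% and 39.0% (CAST/B6), giving 39.4 ± 4.32% (n = 4). Over all 348460 eligible windows the same means were 77.0 ± 1.69% and 60.7 ± 1.68%. The mean difference was thus 41.9 points at the members against 16.4 over all windows. The spread between ExE libraries was also wider at the members: the SD within a window had a median of 6.69 points in ExE, against 4.37 over all windows and 5.55 over all windows of 9 kb or more. In the epiblast it was 5.35 points, against 4.43 and 5.47. These spreads come from the values that the rule used, so they describe the selection. In every one of the 846 members all 4 epiblast libraries lay above all 4 ExE libraries, which the rule favours and which held for 75.9% of eligible windows.

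**Figure D1:**
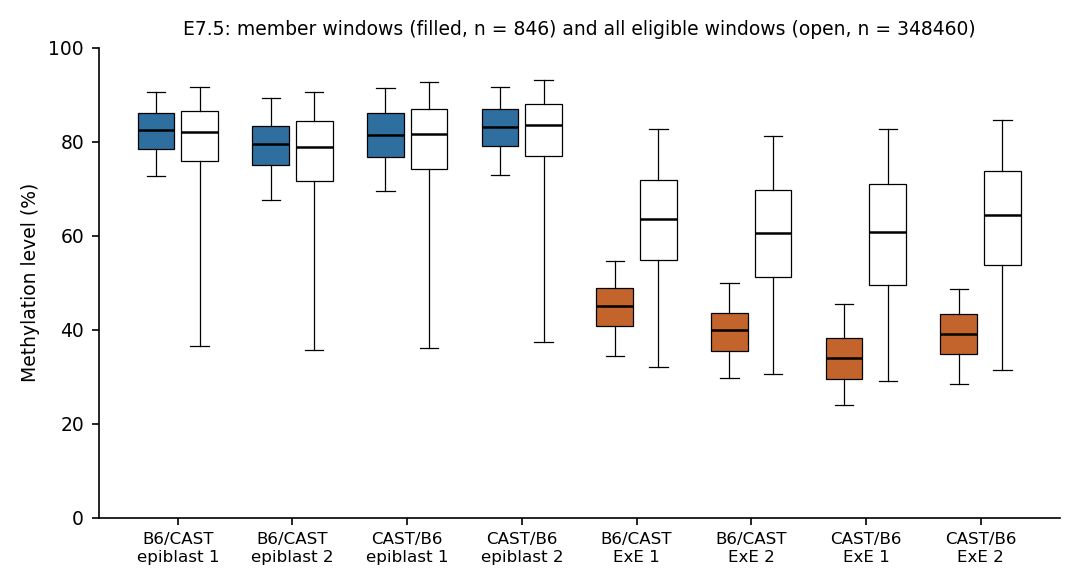
Methylation level (%) of the members (filled boxes) and of all eligible windows (open boxes) in each E7.5 library. Boxes span the quartiles with the median as a line, and whiskers the 5th to 95th percentiles. In the epiblast the filled boxes have a median near that of the open ones, and in ExE the members' boxes lie lower, with CAST/B6 ExE 1 (mean 34.2%) the lowest and B6/CAST ExE 1 (44.8%) the highest.

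The values near the limit were continuous. Of the members, 514 had a difference of 40 to 42 points, 278 of 42 to 45 and 54 of 45 or more, and 2 exceeded 50. A total of 5705 eligible windows differed by 35 points or more, and 22863 by 30 or more. The 3 members just inside the limit (chr17:59475356-59486293, chr3:43814590-43826984 and chr6:131490430-131503463, in 5430401F13Rik) and the 3 windows just outside (chr16:63335138-63346079, chr2:9188563-9200542 and chr16:66076633-66088814) lay on the limit, at 40.0035, 40.0053 and 40.0128 points inside and 39.9992, 39.9964 and 39.9961 outside. Differences of 40 points in the other direction were found in 7 windows. The membership depended on single libraries: without CAST/B6 ExE 1 the same rule gave 509 windows, of which 407 were among the 846, and without B6/CAST ExE 1 it gave 1999, holding 811 of the 846. Without B6/CAST epiblast 2 it gave 1536.

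Most members were long windows, and since each window is set to a number of CpGs, long windows are poor in CpGs. Their median length was 11.6 kb against 5.20 kb for all eligible windows, with 4.91 against 9.88 CpGs per kb and a GC content of 36.7% against 43.9%. Windows of 9 kb or more made up 701 members (82.9%) but 16.1% of eligible windows. Over all eligible windows the median difference rose from 7.90 points in windows of 1 to 3 kb to 27.7 points in those of 11 to 14 kb, with ExE at 62.6% and 49.8% and the epiblast at 78.04% and 78.4% in those classes. Among windows of 9 kb or more, members had a GC content of 36.5% against 38.9% and a median distance from midpoint to the nearest protein-coding transcript start of 279 kb against 125 kb. The share with the midpoint in a protein-coding gene was alike, at 31.0% and 31.3%.

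**Figure D2:**
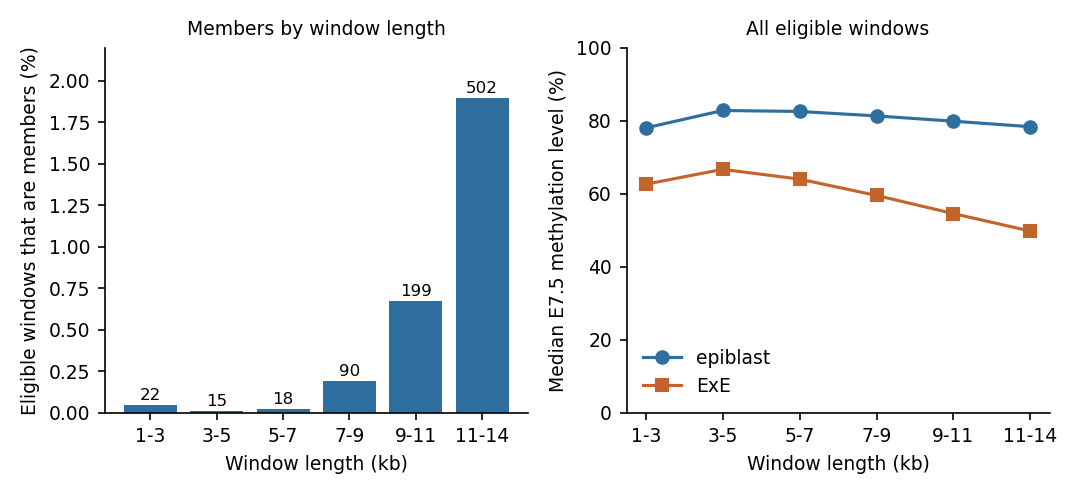
Left, the percentage of eligible windows that are members, by window length in kb, with the number of members above each bar. Right, the median E7.5 methylation level (%) of all eligible windows of the same lengths in epiblast (circles) and ExE (squares). Members reach 1.90% of windows of 11 to 14 kb and are fewest, at 0.0131%, at 3 to 5 kb.

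Most members lay outside genes, as did other long windows: the midpoint fell in an annotated gene in 38.1% of members, 57.0% of eligible windows and 38.8% of those of 9 kb or more. The midpoint of 524 fell in no annotated gene, 435 of these had no protein-coding gene within 50 kb, and 189 had none within 500 kb. A further 276 lay in 163 protein-coding genes, 199 of them with no exon in the window, and 46 lay in other genes only. A protein-coding exon was touched by 11.2% of members against 32.1% of eligible windows, and a protein-coding transcript start by 2.72% (23 members) against 6.31% of eligible windows and 4.10% of those of 9 kb or more. The genes with a member were long, with a median of 349 kb against 17.6 kb for all protein-coding autosomal genes, so that they also held many windows.

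The 10 windows with the largest differences, taken once per cluster, give the range of these settings. The largest was at Skint5 (chr4:113842477-113855777), which encodes an immunoglobulin-like protein related to a skin T cell selecting factor. Its epiblast libraries read 88.1%, 73.7%, 72.9% and 73.7% and its ExE libraries 24.4%, 27.9%, 22.0% and 30.8%, in the order B6/CAST 1, 2, CAST/B6 1, 2, a difference of 50.8 points. The groups lay far apart, with B6/CAST epiblast 1 well above the other epiblasts. The second was intronic in Brinp3 (chr1:146802540-146811742), a gene expressed in neurons. Its epiblasts read 75.2%, 94.3%, 94.0% and 88.5% and its ExE 29.1%, 16.4%, 59.0% and 46.9%, a difference of 50.1 points with widely spread ExE libraries (SD 18.9, n = 4). The third (chr10:104686818-104698712), the source of the chromosome 10 sequence above, lies 495 kb from Tmtc2 and differed by 49.8 points. Windows in introns of Lrrtm4, a synaptic adhesion gene, and of Kctd8, an auxiliary subunit gene of GABA-B receptors, differed by 48.6 and 48.5 points. A window near the vomeronasal receptor gene Vmn2r32 differed by 48.6 points, and long windows far from genes on chromosomes 4 and 3 by 48.5 and 47.8. Another of the 10, on chromosome 18 (chr18:59953872-59955028), differed by 48.4 points and was of another kind, 1157 bp long with 64.8 CpGs per kb and 100% soft-masked repeat.

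The intronic window of Pxn (chr5:115520699-115523160) is 1 of 2 short windows among these 10. Pxn encodes paxillin, an adaptor protein of focal adhesions. The epiblasts read 82.8%, 78.8%, 80.7% and 80.7% and the ExE 32.8%, 30.4%, 34.0% and 33.4%, so that the libraries of each tissue lay close together (SD 1.61 and 1.57, n = 4). The difference was 48.1 points in a window of 2.46 kb with 49 CpGs, 15.1 kb from the nearest start.

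The genes with the most members were large ones. Cdh12 and Cdh18, neighbouring genes for type II cadherins on chromosome 15, held 9 of their 88 and 8 of their 81 eligible windows as members. Lrp1b, a lipoprotein receptor-related gene of over 2 Mb, and Ptprd, a receptor tyrosine phosphatase gene, held 7 each, of 143 and 144 windows, and Cadm2, a cell adhesion gene, 6 of 76. Of the genes with 5 members, Ncam2, a neural cell adhesion gene, held them in 26 windows, Csmd3 in 39, Epha6, an ephrin receptor gene, in 74, Pcdh9 in 77, Adgrb3 in 79, Cntn5 in 92 and Nlgn1, which encodes the postsynaptic protein neuroligin, in 93. The members of such a gene were its extremes rather than an island: the median window of Cdh12 differed by 32.2 points, of Cdh18 by 33.2, of Ncam2 by 34.5 and of Lrp1b by 31.2. The members of Pcdh17, a protocadherin gene of 95.4 kb, were 4 of 11 windows, whose median ExE level was 39.2%.

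Shares for lists of genes stand beside 0.243% of all eligible windows, 0.192% of those of 7 to 9 kb and 1.25% of those of 9 kb or more. Of 3657 eligible windows in 31 long neuronal genes, 51 were members (1.39%), in 17 of the genes, led by Cntnap2 (45.6 points) and Lrp1b (45.4 points). The median window in this list was 8.87 kb long and differed by 25.8 points. Olfactory receptor genes held 6 members in 504 windows (1.19%), and vomeronasal receptor genes 2 in 276 (0.725%), with median differences of 25.8 and 25.6 points in windows of 9.96 and 10.7 kb. In genes of the trophoblast the median difference was 13.4 points and 1 of 752 windows was a member, in Wnt7b, a signalling gene that acts in placental development. Zinc finger genes held 1 in 2348, cytochrome P450 genes 1 in 319 (Cyp7b1) and germline genes 1 in 130 (Sycp2, a component of the synaptonemal complex). No member lay in the 66 windows of epiblast genes, the 154 of the DNA methylation machinery, the 149 of non-canonically imprinted genes, or those of clustered protocadherins, placental prolactin and related genes, keratins, defensins and serpins. The first 3 of these lists had median window lengths of 2.96, 3.76 and 4.015 kb. Of all eligible windows under 5 kb, 0.0226% were members, so that none would be likely in lists of this size. Hox genes had none in 106 windows and ran the other way, with a median of 7.22% in the epiblast and 19.9% in ExE.

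Windows that hold a protein-coding start were led by Gm6685 and Bin2. At Bin2 (chr15:100668918-100670838), which encodes a BAR domain protein of blood cells, the epiblasts read 84.5%, 70.3%, 79.6% and 74.6% and the ExE 34.0%, 31.8%, 34.4% and 28.4%, a difference of 45.1 points. The lowest epiblast was well above the highest ExE. At Gm6685 (chr11:28339504-28343503) the difference was 45.5 points, and ExE ranged from 29.8% to 51.7%. The other 8 of the 10 largest were at Esp23 (44.4 points), Eps8l1 (43.5), Olfr1174-ps (43.0), Akr1c20 (42.8), Vmn2r52 (42.3), Oosp1 and Gm3252 (42.2 each) and Gabra6 (42.1). Gabra6 encodes a GABA-A receptor subunit, Akr1c20 an aldo-keto reductase and Oosp1 an oocyte-secreted protein.

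The 37 members shorter than 5 kb were examined apart, a group set after their values were seen. They are 0.0226% of the 163992 eligible windows of that length, with a median GC content of 47.6%, 18.4 CpGs per kb and 15.5 kb to the nearest start, against 47.1%, 13.8 and 17.9 kb for all eligible windows of that length. The largest difference among them was that of the chromosome 18 window above. Besides this, Pxn, Bin2 and Wnt7b, they include windows in Dnmbp (70.3% and 24.9%), Tcf7l1, a transcription factor of the Wnt pathway (83.7% and 40.3%), Eng, the endoglin co-receptor of TGF-beta ligands (83.6% and 40.7%), and Pvt1, a long non-coding RNA gene (87.8% and 46.9%, epiblast and ExE). The epiblast libraries at Pvt1 spanned 87.2% to 88.4% and its ExE libraries 41.2% to 55.3%. The Wnt7b value rests on epiblasts that differ by cross, at 59.3% and 52.5% in B6/CAST and 88.0% and 88.5% in CAST/B6, against ExE levels of 19.7% to 34.7%.

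Members were spread over all 19 autosomes but unevenly. Chromosome 15 held the most, 85 (0.564% of its eligible windows, and 2.85% of those of 9 kb or more), followed in number by chromosomes 2 with 74 and 3 with 67. In share it was followed by chromosomes 16 (0.453%, and 1.84% of those of 9 kb or more) and 14 (0.393% and 1.62%). Chromosomes 7 and 9 had the lowest shares, both 0.126%, and among windows of 9 kb or more chromosome 18 had the lowest (0.632%). From 20 to 24 Mb of chromosome 15, which holds Cdh12 and Cdh18, 31 of 337 eligible windows were members (9.20%). There the median epiblast level was 79.3%, the median ExE level 45.9% and the median difference 31.1 points. Of 2412 bins of 1 Mb, 501 held a member and 25 held 5 or more, and 339 members (40.1%) lay in bins with at least 3.

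On a finer scale most members stood singly. Joining members up to 50 kb apart gave 747 clusters, of which 672 were single windows, 56 had 2, 16 had 3, 1 had 4 and 2 had 5. The clusters of 5 were in Ncam2 (chr16:81249461-81405287) and in Adgrb3, an adhesion receptor gene (chr1:25690596-25814943), and the cluster of 4 was in Pcdh17 (chr14:84467733-84527368). In the Ncam2 cluster the 12 eligible windows averaged 75.2% in the epiblast and 39.5% in ExE, and the smallest difference was 23.9 points. In the Adgrb3 cluster the 12 windows averaged 78.8% and 41.96%, with a smallest difference of 28.8 points. Clusters of 3 included Lrp1b, Cadm2, Cntn5, Gm12132 and intergenic sites nearest to Cdh18, Prkd1 and Anxa1. The windows between members were not always low in ExE, and the smallest difference within a cluster was 20.4 points at Gm12132 and 5.97 points at the site nearest to Anxa1, where ExE averaged 50.6%. The windows adjoining a member averaged 76.6% in the epiblast and 46.5% in ExE, a difference of 30.1 points, and 56.4% of them differed by 30 points or more, against 8.51% of all windows. At 10 windows away the mean difference was 27.3 points and at 100 windows away 24.04, against 16.3 for all autosomal windows. The neighbouring windows were themselves long, however, and eligible windows of 9 to 11 kb and 11 to 14 kb had median differences of 24.3 and 27.7 points anywhere in the autosomes. The windows next to a member had a median difference of 30.97 points.

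**Figure D3:**
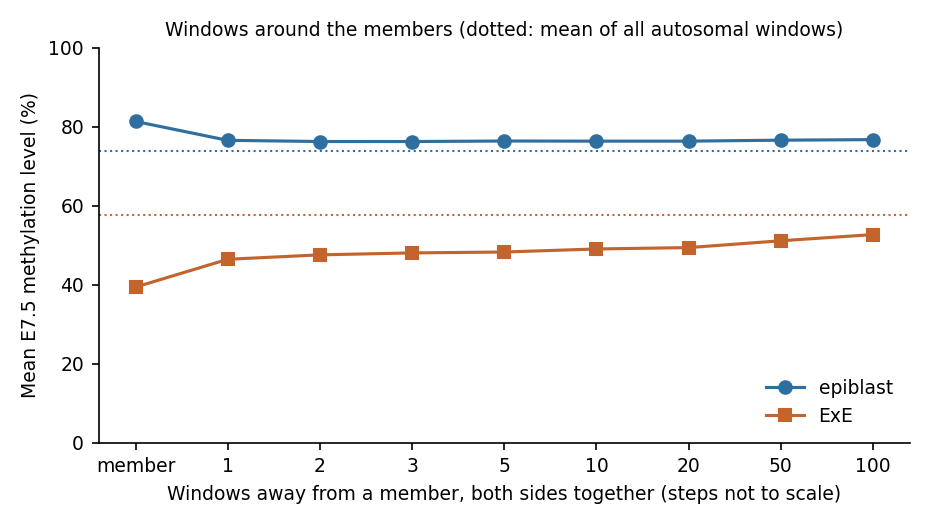
Mean E7.5 methylation level (%) in epiblast (circles) and ExE (squares) at the members and in windows 1 to 100 steps to either side, with the means of all autosomal windows as dotted lines. From a member to its neighbour the mean goes from 39.4% to 46.5% in ExE and from 81.3% to 76.6% in the epiblast, and ExE is at 52.7% at 100 windows, below the dotted line at 57.6%.

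The E6.5 libraries took no part in the choice and allow the tissues to be compared again. Each member was matched to the E6.5 window holding its midpoint, which existed for 837 members in 832 distinct windows. These windows are longer than those of E7.5, with a median of 15.1 kb at the members. Of these, 524 had a value in all 10 wild-type libraries and were tested, with the cross as a covariate, by limma over all 250886 such windows with Benjamini-Hochberg adjustment. Of the 524, 511 (97.5%) were higher in the epiblast at an adjusted p under 0.05, and none was higher in ExE. The background was high, since 59.6% of all windows and 85.0% of windows of 9 kb or more were called in the same direction. The sizes differed too: the median difference was 33.0 points at the members (7.77 to 61.2), 16.6 over all windows and 25.7 over windows of 9 kb or more. A difference of 40 points or more, as the rule asks at E7.5, was reached by 92 of the 524 (17.6%), against 1.42% of all windows and 4.63% of windows of 9 kb or more. Every epiblast library lay above every ExE library in 182 (34.7%), against 17.1% and, in windows of 9 kb or more, 24.5%. The set of 9 kb or more is not matched to the members, whose E6.5 windows had a median of 15.1 kb. At E7.5 the median difference rose with length, from 24.3 points at 9 to 11 kb to 30.4 at 14 kb or more. How far length accounts for the larger values at members was not tested.

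**Figure D4:**
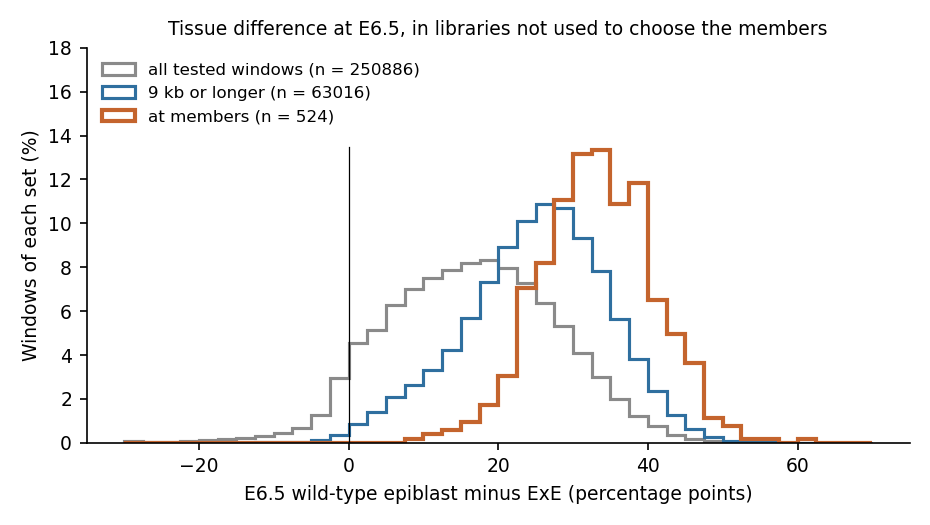
Distribution of the E6.5 difference, wild-type epiblast minus ExE in percentage points, as a percentage of the windows in each set: those at members (thick line, n = 524), all tested windows of 9 kb or more (n = 63016) and all tested windows (n = 250886). The median is 33.0 points at members, 25.7 in long windows and 16.6 in all.

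Levels at these 524 windows differed between crosses, more widely than over all windows. B6/CAST epiblasts averaged 55.6%, 66.0% and 74.1% (65.3 ± 9.27%, SD, n = 3) and CAST/B6 epiblasts 80.1%, 80.8% and 83.8% (81.6 ± 1.95%, n = 3). B6/CAST ExE averaged 30.8% and 30.3% and CAST/B6 ExE 51.7% and 47.9%. The CAST/B6 ExE thus lay below every CAST/B6 epiblast, and the B6/CAST ExE below every B6/CAST epiblast, while the lowest B6/CAST epiblast and the highest CAST/B6 ExE were close. Fitted within a cross, a comparison added after seeing the data, the mean difference was 34.5 points over 694 windows at members in B6/CAST, of which limma called 407, against 27.0% of all windows. In CAST/B6 it was 31.4 points over 596, of which 379 were called, against 23.2%. When each library's mean over all windows was first subtracted, the mean difference at members fell to 16.7 points and 215 of the 524 were called, against 6.25% of all windows.

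Values for single members are given next. At Pxn the B6/CAST epiblasts read 63.3%, 68.8% and 76.8% and the CAST/B6 epiblasts 88.2%, 89.7% and 81.5%, against 40.4% and 26.1% in B6/CAST ExE and 61.3% and 41.8% in CAST/B6 ExE. The difference was 35.7 points (SE 5.03, limma adjusted p = 0.000592), with the highest ExE just under the lowest epiblast. At Bin2 the epiblasts read 63.6%, 42.4%, 50.9%, 73.7%, 66.7% and 62.6% and the ExE 23.4%, 19.8%, 22.8% and 40%. Every epiblast lay above every ExE, with a difference of 33.5 points (SE 5.18, adjusted p = 0.000772). At Pvt1 the difference was 56.0 points (SE 4.28, adjusted p = 0.000408), at Dnmbp 51.0 points (SE 6.22, adjusted p = 0.000442) and in Zfpm2, a cofactor gene of GATA factors, 45.4 points (SE 4.48, adjusted p = 0.000408). The E6.5 windows of Skint5, Brinp3, Lrrtm4 and the chromosome 10 site lacked values in 1 or more of the 10 libraries and were not tested. Nor was that of the short chromosome 18 window (chr18:59954009-59960446), where the tissues overlapped: 3 epiblasts read 36.5%, 21.4% and 57.9% and 3 ExE 16.7%, 37.0% and 59.1%.

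Of the genes with many members, Ncam2 was higher in the E6.5 epiblast in both windows that could be tested, which cover 3 of its members, at 44.6 and 44.5 points (adjusted p = 0.000408 and 0.00117). The 5 members in Adgrb3 ran from 22.7 to 46.2 points, all with an adjusted p under 0.05. Of the 5 windows tested in Cdh12, 3 were called, the largest at 39.9 points (adjusted p = 0.000621), while 2 were not, at 24.8 and 14.6 points (adjusted p = 0.0611 and 0.0762). In Foxp2, a transcription factor gene known from speech and brain development, the 3 tested windows were called at 28.4 to 35.1 points. The calls covered all lengths of the E7.5 members: 24 of 24 tested were called under 5 kb (median 33.0 points) and 59 of 60 at 5 to 9 kb (32.8 points). At 9 kb or more 428 of 440 were called (33.0 points). For these counts and those of single genes, the background was 59.6% of all tested E6.5 windows. It was 85.0% of E6.5 windows of 9 kb or more, and was not computed for shorter ones.

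The matDKO/CAST embryos came from oocytes that had lacked DNMT3A and DNMT3B. They also carried a deleted copy of each gene themselves, and their mothers differed in strain background from those of B6/CAST. All matDKO/CAST libraries shared these features, so which of them a difference from B6/CAST goes with, in either tissue, was not tested. In the epiblast, 310 windows at members had a value in all 8 libraries. There matDKO/CAST averaged 45.4% and 41.9% (43.6 ± 2.49%, n = 2), B6/CAST 65.8 ± 9.30% (n = 3) and CAST/B6 81.7 ± 1.91% (n = 3). Both matDKO/CAST libraries were below every wild-type library. The median difference from B6/CAST was -22.0 points at members and -16.4 over all 192419 windows. With limma, 73 of 310 (23.5%) were called lower, the same share as the 23.4% of all windows. Against both crosses together 177 of the 310 were called lower, against 47.7% of all windows. With library means subtracted the median at members was -5.30 points and no window was called, and no window was called with the replicate block. The count also moved with the libraries and the scale: it was 17 of 311 without the unnumbered B6/CAST epiblast and 117 of 311 without B6/CAST epiblast 1, and 0 on the logit scale, where 0% of all windows were called. It was 40 without B6/CAST epiblast 3, and 48, 39 and 46 without CAST/B6 epiblasts 1, 2 and 3, which share the estimate of the spread.

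The members that fell most were at Trhr, the thyrotropin-releasing hormone receptor gene (-58.9 points, SE 9.55, adjusted p = 0.0133), and at intergenic sites nearest to Kcnt2 (-52.6 points, adjusted p = 0.0137), Gata3 (-50.4 points, adjusted p = 0.0141) and Pou4f1 (-50.4 points, adjusted p = 0.0273). At Trhr the B6/CAST epiblasts read 54.2%, 83.3% and 71.5%, the CAST/B6 epiblasts 70%, 62.4% and 72.2%, and matDKO/CAST 21.4% and 0%. Both matDKO/CAST values lay below all wild-type ones, and a reading of 0% has an unknown depth behind it. Of the 310 windows at members, 302 had an estimate below B6/CAST and 8 above it. Eng was among the 8. There the matDKO/CAST epiblasts read 79.4% and 77.4% within B6/CAST values of 79.7%, 70% and 56.8% (difference 9.59 points, SE 7.07, limma adjusted p = 0.313). Against both crosses together this difference turned to -2.07 points.

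In ExE the members started lower and the difference was smaller. At 533 windows matDKO/CAST averaged 29.9%, 21.1% and 18.4% (23.1 ± 6.05%, n = 3), B6/CAST 30.3% and 30.1% and CAST/B6 51.6% and 47.7%. The first matDKO/CAST library lay at the level of B6/CAST. The median difference from B6/CAST was -7.52 points at members against -12.4 over all 254322 windows. The sign and size depended on the reference: with library means subtracted the median was 4.91 points at members and 0.0182 over all windows. Against both crosses together it was -16.6 at members and -18.7 over all windows, with 45 of 533 called lower, against 26.3% of all windows. The median at members thus lay above that of all windows with each of these references. Against B6/CAST no member was called by limma and no window anywhere (0%), while 42 members (7.88%) and 65546 windows (25.8%) had an unadjusted p under 0.05. The lowest were in Bdnf, the gene of brain-derived neurotrophic factor (-36.1 points, adjusted p = 0.132), and Akr1c20 (-34.5 points, adjusted p = 0.132). At Akr1c20 the B6/CAST ExE read 44.7% and 45.7% and the matDKO/CAST ExE 13.2%, 9.52% and 9.38%, with CAST/B6 between at 31.6% and 25.0%.

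Epiblast and ExE still differed in matDKO/CAST. At the 232 windows with a value in all 15 libraries, the matDKO/CAST epiblasts averaged 45.6% and 41.995% and the ExE 30.1%, 21.1% and 18.4%, without overlap. The median difference was 20.5 points against 12.9 over all 167307 windows. Limma called 57 of the 232 (24.6%), against 19.6% of all windows, and 28 of 273 without matDKO/CAST ExE 3. Without matDKO/CAST ExE 2 or epiblast 1 the count was 37, and on the logit scale it was 0, with 0.0759% of all windows called. The difference of these differences, matDKO/CAST minus B6/CAST, had a median of -15.4 points at members and -3.55 points over all windows. In the test of that inequality no member and no window was called (0%), with 39 members (16.8%) and 14723 windows (8.80%) at an unadjusted p under 0.05, so that the tissue difference was not shown to be unequal at any single window. In Pvt1 the ExE of matDKO/CAST read 52.6%, 45.7% and 22.5% beside epiblasts of 64.9% and 34.2%, whereas the B6/CAST ExE had read 28.6% and 30% beside epiblasts of 74.8%, 85.8% and 86.8%.

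**Figure D5:**
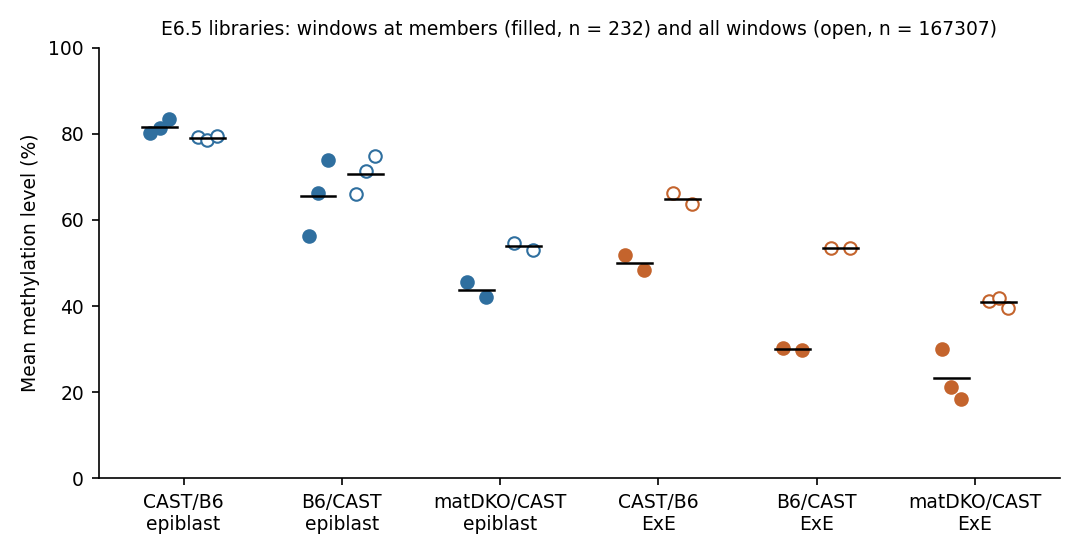
Mean methylation level (%) of each E6.5 library over the 232 windows at members (filled) and all 167307 windows (open) with values in all 15 libraries, by cross and tissue, with group means as bars. In the epiblast the filled points lie above the open ones in CAST/B6 and below them in B6/CAST and matDKO/CAST, and in ExE they lie below in each cross, down to 18.4% in matDKO/CAST ExE 3.

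The alleles were compared in E7.5 libraries, where reads carrying strain variants were assigned to the mother or the father. In ExE, 605 members had both alleles in all 4 libraries. The maternal alleles averaged 45.7%, 39.9%, 34.3% and 39.4% (39.8 ± 4.68%, SD, n = 4) and the paternal alleles 46.3%, 42.2%, 36.1% and 41.0% (41.4 ± 4.23%, n = 4), in the order B6/CAST 1, 2, CAST/B6 1, 2. Maternal minus paternal was negative in each library, from -0.647 to -2.24 points, while the libraries themselves differed by more than this. Over all 318358 windows the maternal allele was higher in both B6/CAST libraries and lower in both CAST/B6 libraries. No member was called by limma, fitted to the difference within each library with the strain as a covariate. Of all windows 23 (0.00722%) were called, and at an unadjusted p under 0.05 there were 70 members (11.6%) and 20303 windows (6.38%).

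In the epiblast, 282 members could be compared, with 81.7 ± 1.45% on the maternal and 81.4 ± 2.21% on the paternal allele. None was called by limma, against 20 of 238529 windows (0.00838%), and at an unadjusted p under 0.05 there were 20 members (7.09%) and 11608 windows (4.87%). The low ExE level was present on both alleles. In the 280 members with both alleles in all 8 libraries the tissue difference had a median of 41.5 points on the maternal allele (26.4 to 60.6) and 39.6 on the paternal (16.0 to 55.8). It reached 30 points in 274 and 266 of them. The rule used the same reads, so these differences describe the selection.

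The widest parental differences in ExE were not called. In an intergenic window nearest to Cdh9 (chr15:17100386-17109792) the maternal allele read 84.4%, 58.3%, 54.2% and 50% and the paternal 36.7%, 45.8%, 24.7% and 39.3%, a difference of 25.1 points (SE 6.87, adjusted p = 0.777). Its maternal allele was higher in all 4 libraries. A Pcdh17 window (chr14:84483996-84495965) ran the other way, with 25.1%, 35.2%, 24.2% and 21.9% on the maternal and 72.7%, 47.2%, 32.6% and 54.2% on the paternal allele (-25.1 points, SE 7.23, adjusted p = 0.777). Windows in Lingo2, a neuronal leucine-rich repeat gene (23.5 points), and far from genes on chromosome 8 (-22.6 points) had the same adjusted p of 0.777.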

How the data were processed

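The values were deposited by the authors as percent methylation, from 0 to 100, in windows of 100 CpGs, in separate tables for E6.5, for E7.5 and for the parental alleles at E7.5, with no scaling between libraries and no coverage. Per the submitters' processing notes, reads were trimmed with Trim Galore 0.4.4 and aligned with Bismark (0.20.0 at E6.5) to GRCm38. The labels state that bisulphite conversion was repeated for E7.5. Replicates come from separate pools or embryos, and same-numbered E6.5 samples did not deviate together (correlations of -0.0115 to 0.0267).

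The members and lists were chosen with earlier results of these data known. Percentages were modelled with limma 3.58.1 (R 4.3.3), over all autosomal windows with a value in every library of a fit, with Benjamini-Hochberg adjustment and a threshold of 0.05. The matDKO/CAST contrasts used fits of all groups of the tissue, or of all 15 libraries for the tissue contrasts. The fits were tested on simulated data. Genes come from the GENCODE annotation of GRCm38, and sequences from the RefSeq copy of GRCm38, and windows whose chosen stretch lay mostly in soft-masked repeats were left out of those shown. Python 3.11.15, numpy 2.4.6, pandas 2.3.3 and matplotlib 3.10.9 were used otherwise.

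Named windows were the 10 with the largest difference (1 per cluster), the 10 clusters and 10 genes with the most members, members in listed genes (up to 4 per list), the 10 largest holding a protein-coding start, the 3 on either side of the limit, the 4 largest parental differences, the 4 largest each way per matDKO/CAST comparison, and Elf5. Other named windows and genes were chosen after their values were seen. Windows far from genes are named by the nearest protein-coding one. Alternatives were other thresholds, gaps, scales and covariates, library means subtracted, a replicate block, and each library left out in turn.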

Additional observations from a re-analysis of the deposited data

Results flagged for a closer look

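At the member in Skint5 (chr4:113842477-113855777), B6/CAST epiblast 1 stood apart from the other E7.5 epiblasts, at 88.1% against 72.9% to 73.7%. At the member holding the start of Oosp1 (chr19:11682312-11693449), CAST/B6 epiblast 1 did so at 90.2% against 78.9% to 80.6%. These are 2 of 48 groups of 4 libraries examined, and chance alone sets apart about 1 group in 20.

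Windows outside the rule also reached 40 points. On the X chromosome 89 of 12717 windows in the same range of lengths did so (0.700%, median difference 22.3 points). Among autosomal windows 7 of 16601 shorter than 1000 bp did (0.0422%), and 782 of 18495 of 14 kb or more (4.23%, median difference 30.4 points).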

How the results depend on the processing

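The number of members was 22863 at a limit of 30 points and 2 at 50, and 509 to 1999 when 1 library was left out. The mean E6.5 difference at members was 33.2 points, and 16.7 with library means subtracted. For the E6.5 tissue calls (511 of 524), subtraction gave 215 and the replicate block 339, with 21.2% of all windows called under the block. Calls below B6/CAST in the matDKO/CAST epiblast (73) were 0 on the logit scale, 0 with library means subtracted, 0 with the replicate block, 177 with both crosses as wild type (47.7% of all windows), 39 to 117 without 1 numbered library and 17 without the unnumbered B6/CAST epiblast. In ExE they were 45 with both crosses as wild type (26.3% of all windows). Calls between the matDKO/CAST tissues (57) were 0 on the logit scale and 28 to 63 without 1 numbered library and 64 without the unnumbered one, where leaving out B6/CAST libraries was added after seeing the data. No called value changed sign under these settings, though some uncalled matDKO/CAST differences of single windows and the members' ExE median did, and the cause of each change was not tested. The other counts of members called stayed within 1.5 times their value, while the parental calls over all windows (23 in ExE, 20 in the epiblast) fell to 0 with a trended robust prior and without any 1 library, and to 5 in the epiblast on the logit scale. For the single windows named, the E6.5 tissue value kept its side of the threshold in 282 combinations of window and alternative and lost its call in 42.

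The depth behind each percentage is unknown. Same-numbered E6.5 samples are not known to share more than a number. Whether same-numbered E7.5 tissues came from the same embryo was not examined. Under the replicate block the members' median was 28.5 points for the E6.5 tissues, -17.9 for matDKO/CAST in the epiblast and -5.16 in ExE.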
